A study of Homo sapiens with 8 samples.

Results

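The mRNAs described here encode 10 enzymes of glycolysis, namely HK2, GPI, ALDOA, TPI1, GAPDH, PGK1, PGAM1, ENO1, PKM, and LDHA. They were chosen by gene symbol rather than by a rule on their values, but with earlier results of these data known. All 10 were found among the 57756 genes listed in each library. An antibody against ribosomal protein S6 (RPS6), a component of the small ribosomal subunit, was used for RNA immunoprecipitation (RIP), and the bound RNA was sequenced beside the input, an aliquot of lysate RNA that had not been immunoprecipitated. This was done in 4 human cancer cell lines, which were Hep3B (hepatocellular carcinoma), HCT116 (colorectal cancer), DU145 (prostate cancer), and SW1990 (pancreatic cancer), with 1 RIP and 1 input library each and 8 libraries in all. The labels of the hepatocellular carcinoma pair disagree, with 3B in the titles and Huh7 as the cell line, and the pair is called Hep3B here, after the titles and the paper. No treatment is named. Libraries were prepared from total RNA with a stranded kit, and no pulldown with a control antibody was analysed here. Because each line had a single library of each kind, p-values measure the spread between cell lines, and no difference between lines could be tested.

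Glycolysis splits glucose into pyruvate and yields ATP and NADH in the cytosol. Its enzymes are made on cytoplasmic ribosomes from some of the most abundant mRNAs of a growing cell. Many tumors run the pathway at a high rate and turn pyruvate into lactate even when oxygen is present, and its genes are known targets of the hypoxia-inducible factors and of MYC. The question asked here was how the level of each mRNA in RPS6-bound RNA compared with its level in the input, and whether the enzymes of the pathway moved together.

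Promoters of the 10 genes were read from RefSeq (GRCh38.p14), which lists 15 starts for them, and 3 are shown because their genes had the highest fold change, the most variable level, and the lowest fold change in the values that follow. Each is the 250 bases before a listed start, written 5′ to 3′ on the strand of the gene. Capitals mark ACGTG or GCGTG on either strand, the core letters of the hypoxia response element, with overlapping matches merged as in CACGTG.
ENO1, chr1:8878687-8878936, minus strand: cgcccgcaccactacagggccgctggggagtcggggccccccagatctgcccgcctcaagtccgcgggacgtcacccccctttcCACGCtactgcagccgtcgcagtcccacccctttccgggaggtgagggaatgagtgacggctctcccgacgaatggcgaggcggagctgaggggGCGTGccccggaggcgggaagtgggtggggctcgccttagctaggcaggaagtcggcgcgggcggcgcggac
HK2, chr2:74833877-74834126, plus strand: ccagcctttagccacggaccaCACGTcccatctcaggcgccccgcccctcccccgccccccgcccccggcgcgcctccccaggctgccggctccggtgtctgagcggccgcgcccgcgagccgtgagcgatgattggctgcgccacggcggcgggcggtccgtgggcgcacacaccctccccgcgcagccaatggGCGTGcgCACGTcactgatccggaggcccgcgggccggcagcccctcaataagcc
LDHA, chr11:18394313-18394562, plus strand: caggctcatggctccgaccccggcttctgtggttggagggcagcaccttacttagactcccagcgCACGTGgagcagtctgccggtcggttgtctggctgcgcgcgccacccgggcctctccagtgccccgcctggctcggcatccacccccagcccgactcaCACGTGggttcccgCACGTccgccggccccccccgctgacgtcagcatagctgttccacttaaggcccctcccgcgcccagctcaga
These windows held 2, 3, and 3 marked stretches, and 2 of those of LDHA were CACGTG. HK2 and LDHA each have another listed start that is not shown. The other window of HK2 held 4 stretches, 2 of them CACGTG, and that of LDHA held 1, which was not CACGTG. At least 1 stretch lay before a listed start of 8 of the 10 genes, compared with 47.4% of 27305 genes with a listed promoter. PGAM1 and PKM had none. The windows of the 10 genes held 53.2% to 76.8% G and C, compared with 58.0% for all promoters. A gene with more listed starts also has more windows to match, with 15 starts for the 10 genes and 35116 for the 27305. The part of base content and number of starts in these shares was not tested. A match describes letters and is not a binding site.

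The mRNAs of many ribosomal proteins and translation factors begin with a C and a run of pyrimidines, a 5′ terminal motif that links their translation to mTOR signaling. A C followed by 4 pyrimidines stood at a listed start of 1 of the 10 genes, compared with 5.14% of all genes. That gene was TPI1, whose first 20 bases from the second listed start are shown with the first 5 in capitals.
TPI1, chr12:6868105-6868124, plus strand: CTCCCcttcctcgccggcgt
The first listed start of TPI1 did not carry the motif, and neither did any start of the other genes.

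Depth was similar in all libraries. The fragments recovered from the deposited counts numbered 35796166 to 54209632 in the inputs and 34630363 to 42610074 in the RIP libraries, so that intervals from counting alone were narrow for these abundant mRNAs. In the inputs, all 7 liver markers were above 1 FPKM in Hep3B, with a sum of 15347 FPKM, and the sum was 1.30 to 17.1 FPKM in the other lines. The lists of intestine and prostate markers each had 1 of 6 genes above 1 FPKM in the input of HCT116 and DU145, with sums of 6.63 and 9.46 FPKM. They did not set these lines apart, since the intestine list summed to 151.8 FPKM in Hep3B and 95.3 FPKM in SW1990, and the prostate list to 12.1 FPKM in SW1990. KLK2, KLK3, HOXB13, TMPRSS2, and FOLH1 were at 0 in the DU145 input, and CDX1 and VIL1 in that of HCT116. Genes of the pancreatic duct list summed to 294 FPKM in the SW1990 input and to 213, 617, and 418 FPKM in those of Hep3B, HCT116, and DU145, so this list did not set SW1990 apart.

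In all 4 cell lines, the mRNAs of the 10 enzymes had a higher FPKM (fragments per kilobase, per 1000000 fragments mapped) in the RIP library than in its input. The 40 log2 ratios of RIP to input, each taken as log2 of (RIP FPKM + 1)/(input FPKM + 1), ran from 0.26 to 2.28 with a median of 1.49, and all 40 were above 0. As a share of all fragments in the library, 39 of the 40 were higher in the RIP, and the exception was GAPDH in SW1990, with a share 0.890 times that of the input. How many of all genes were higher by this measure was not counted. With scaling by library totals, the median log2 fold change of all genes tested was -0.40. Among all genes with a mean of at least 1 FPKM, 33.7% were higher in the RIP of all 4 lines by FPKM. For protein-coding genes with a mean of at least 100 FPKM, the level of 9 of the 10 enzymes, this share was 47.7%. All 40 ratios of the enzymes also exceeded the median of protein-coding genes in their own line, which was 0.30 for Hep3B, 0.16 for both HCT116 and DU145, and 0.19 for SW1990. The median of the abundant protein-coding genes in SW1990 was 0.28, slightly above the ratio of GAPDH there.

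**Figure D1:**
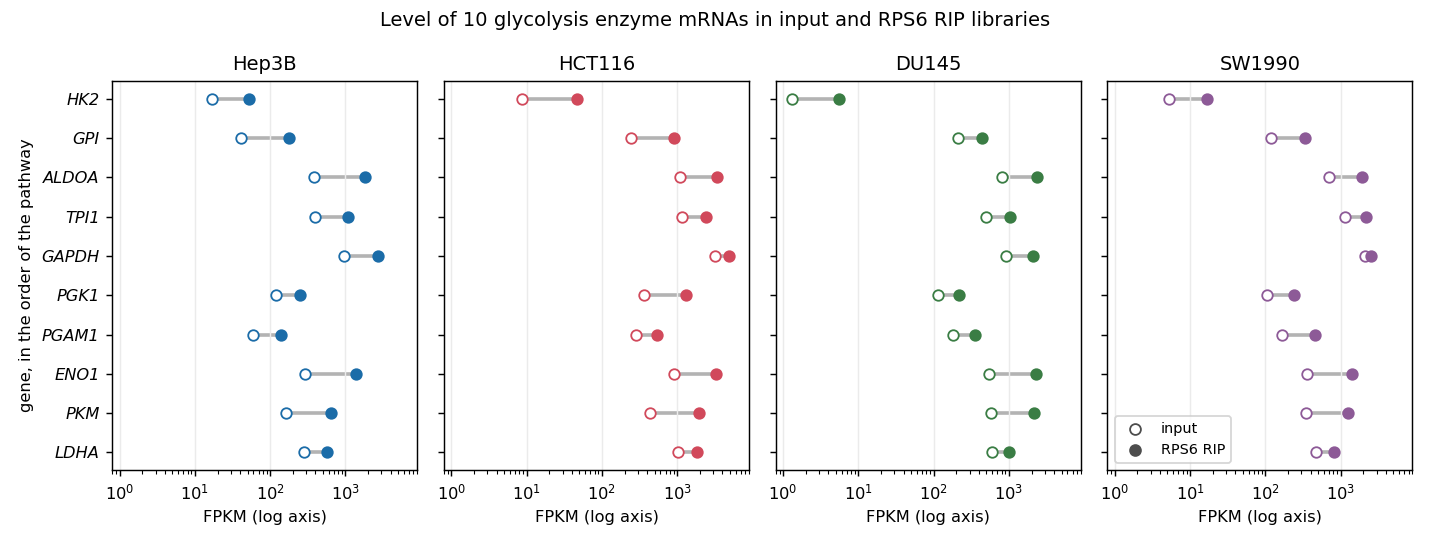
FPKM of the 10 glycolysis enzyme mRNAs, in the order of the pathway from top to bottom, in the input (open circles) and RPS6 RIP (filled circles) library of each cell line, on a log axis. Each circle is 1 library. The filled circle lies to the right of the open one in all 40 pairs, with the shortest line for GAPDH in SW1990 and values from 1.31 FPKM for HK2 in the DU145 input to 4917 FPKM for GAPDH in the HCT116 RIP.

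Across the 4 pairs, edgeR's quasi-likelihood test with the cell line as a block called 9 of the 10 genes higher in the RIP at an adjusted p under 0.05 and none lower. LDHA did not pass, with an adjusted p of 0.051 by edgeR and an unadjusted p of 0.026. Of the 19921 genes tested, 26.5% were called higher and 24.9% lower. Among 1142 abundant genes (mean of 100 FPKM or more), 40.7% were called higher and 32.8% lower. The median log2 fold change of the 10 genes was 1.33, compared with -0.05 over all genes tested and 0.13 over protein-coding genes. Scaling by library totals alone moved the median of all genes to -0.40 and the share of higher genes among all calls from 51.6% to 37.9%, and centring on protein-coding genes put that share at 46.5%. The smallest two-sided p that an exact sign-flip permutation test can reach with 4 lines is 0.13, and each of the 10 genes reached it.

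The first enzymes of the pathway prime glucose and split it into triose phosphates. HK2 (ENSG00000159399, chr2:75059781-75120486 in hg19) encodes hexokinase 2, which traps glucose in the cell by phosphorylating it. It was at 16.6 FPKM in the Hep3B input and 52.4 FPKM in the RIP, at 8.67 and 46.1 FPKM in HCT116, at 1.31 and 5.52 FPKM in DU145, and at 5.24 and 16.9 FPKM in SW1990. HK2 was the lowest of the 10 mRNAs in every library, and its input level spanned 12.7-fold between lines, so that inputs and RIP libraries overlapped although each RIP exceeded its own input. The log2 fold change was 1.72 (SE 0.20, 4 pairs; adjusted p = 5.7e-05, edgeR), the lowest adjusted p of the 10 genes. Its FPKM ratio was highest in HCT116, at 4.87-fold on the (FPKM + 1) scale, compared with 2.83-fold to 3.03-fold for the other lines.

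GPI (ENSG00000105220, chr19:34850384-34919178) encodes glucose-6-phosphate isomerase, which turns glucose-6-phosphate into fructose-6-phosphate. It rose from 41.4 FPKM in the input to 178 FPKM in the RIP of Hep3B, from 247 to 901 FPKM in HCT116, from 209.9 to 439.5 FPKM in DU145, and from 118 to 339 FPKM in SW1990. The Hep3B input was the lowest of the 4, and the RIP of that line was still below the inputs of HCT116 and DU145. Over the pairs, the log2 fold change was 1.54 (SE 0.24, 4 pairs; adjusted p = 0.00041, edgeR). The log2 ratio of FPKM was 2.08 in Hep3B and 1.06 in DU145, a spread of 0.44 (SD, n = 4) about a mean of 1.63.

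ALDOA (ENSG00000149925, chr16:30064410-30081778) encodes aldolase A, which cleaves fructose-1,6-bisphosphate. Its level was 379 FPKM in the input and 1836 FPKM in the RIP of Hep3B, 1086 and 3345 FPKM in HCT116, 815 and 2379.7 FPKM in DU145, and 707 and 1948 FPKM in SW1990. The lowest RIP value exceeded the highest input value, so the groups did not overlap. Its log2 fold change was 1.82 (SE 0.27, 4 pairs; adjusted p = 0.000297, edgeR), and the log2 ratio of 2.27 in Hep3B stood above the 1.46 to 1.62 of the other lines. In the DU145 RIP, ALDOA had the highest FPKM of the 10 mRNAs, a place that GAPDH held in the other 7 libraries.

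TPI1 (ENSG00000111669, chr12:6976282-7032861) encodes triose-phosphate isomerase, which interconverts both products of aldolase. It was at 389 FPKM in the Hep3B input and 1076 FPKM in the RIP, at 1176 and 2401 FPKM in HCT116, at 499.7 and 1037 FPKM in DU145, and at 1152 and 2206 FPKM in SW1990. HCT116 and SW1990 were high in both kinds of library, and their inputs exceeded the RIP values of Hep3B and DU145. By edgeR, the log2 fold change was 1.12 (SE 0.23, 4 pairs; adjusted p = 0.00197). The deposited locus of TPI1 also holds ENO2, LRRC23, SPSB2, DSTNP2, and RPL13P5, so fragments at shared positions may have been split between genes.

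The next enzymes oxidize the triose phosphates and recover ATP. GAPDH (ENSG00000111640, chr12:6643092-6647537) encodes glyceraldehyde-3-phosphate dehydrogenase, which makes the NADH of the pathway and is a common reference gene for RNA measurements. It was at 946 FPKM in the input and 2728 FPKM in the RIP of Hep3B, 3190.1 and 4917 FPKM in HCT116, 918 and 2072 FPKM for DU145, and 2125 and 2547 FPKM for SW1990. The HCT116 input was above the RIP of all other lines, so the groups overlapped. GAPDH also had the widest spread of ratios, with log2 ratios of 1.53 in Hep3B, 1.17 in DU145, 0.62 in HCT116, and 0.26 in SW1990 (mean 0.90 ± 0.56, SD, n = 4). GAPDH had a log2 fold change of 0.91 (SE 0.30, 4 pairs; adjusted p = 0.028, edgeR). That call was lost without the pair of Hep3B (0.58), HCT116 (0.98), or DU145 (0.84) and with library totals in place of TMM (0.56). In SW1990 the direction depended on the measure, with 3205 of 1000000 fragments in the input (95% Wilson interval 3187 to 3223) and 2853 in the RIP (2836 to 2869.7), while FPKM was 1.20-fold higher in the RIP.

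PGK1 (ENSG00000102144, chrX:77320684-77384793) encodes phosphoglycerate kinase 1, the first of the ATP-forming enzymes. It measured 119.8 FPKM in the input and 249 FPKM in the RIP of Hep3B, 357 and 1309 FPKM in HCT116, 114 and 220.0 FPKM in DU145, and 106 and 238 FPKM in SW1990. HCT116 stood apart in both libraries, and its input alone exceeded the RIP of the other lines, which lay close together. The log2 fold change was 0.89 (SE 0.22, 4 pairs; adjusted p = 0.00741, edgeR), and it was 0.54 and no longer past the threshold with library totals. The mean log2 ratio of FPKM was larger, at 1.26 ± 0.42 (SD, n = 4), with 1.87 in HCT116 and 0.94 in DU145 as its extremes.

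PGAM1 (ENSG00000171314, chr10:99185916-99193198) encodes phosphoglycerate mutase 1, which moves the phosphate group from one carbon of phosphoglycerate to the next. It was at 58.7 FPKM in the Hep3B input and 139 FPKM in the RIP, at 281 and 542 FPKM in HCT116, at 179 and 349.8 FPKM in DU145, and at 166 and 463 FPKM in SW1990. Hep3B was low in both libraries, and its RIP fell below the inputs of the other lines. PGAM1 had a log2 fold change of 1.10 (SE 0.21, 4 pairs; adjusted p = 0.00126, edgeR), and was the only 1 of the 10 genes with its highest log2 ratio of FPKM in SW1990 (1.47). PGAM1 has a near-identical copy, PGAM4, and 13 pseudogenes by name, so its fragments may be divided among them.

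ENO1 (ENSG00000074800, chr1:8921060-8939953) encodes enolase 1, which makes phosphoenolpyruvate. It rose from 292 FPKM in the input to 1386 FPKM in the RIP of Hep3B, from 901 to 3317 FPKM in HCT116, from 548 to 2279 FPKM in DU145, and from 357 to 1409 FPKM in SW1990. The lowest RIP library, that of Hep3B, was above the highest input, that of HCT116. ENO1 had the highest log2 fold change of the 10 genes, at 1.89 (SE 0.25, 4 pairs; adjusted p = 0.000115, edgeR). Its log2 ratios were close between lines, with a mean of 2.04 ± 0.15 (SD, n = 4), and were the highest of the 10 genes in DU145 and SW1990.

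PKM (ENSG00000067225, chr15:72491369-72524164) encodes the pyruvate kinase of most tissues and tumors, which makes pyruvate and ATP. Its level was 162 FPKM in the input and 648 FPKM in the RIP of Hep3B, 438 and 1946 FPKM in HCT116, 581 and 2128 FPKM in DU145, and 346 and 1246 FPKM in SW1990. Inputs and RIP libraries did not overlap, although the Hep3B RIP was only slightly above the DU145 input. PKM had a log2 fold change of 1.89 (SE 0.24, 4 pairs; adjusted p = 0.000112, edgeR), close to that of ENO1, and the mean log2 ratio of FPKM was 1.97 ± 0.14 (SD, n = 4). In the DU145 RIP, PKM had more fragments than any other gene listed, with 0.458% of the library. The gene-level values do not separate its M1 and M2 splice forms.

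LDHA (ENSG00000134333, chr11:18415934-18429972) encodes the A subunit of lactate dehydrogenase, which turns pyruvate into lactate and regenerates NAD+. Its level was 280.0 FPKM in the Hep3B input and 575 FPKM in the RIP, 1032 and 1839.5 FPKM in HCT116, 595 and 1003 FPKM in DU145, and 474 and 814 FPKM in SW1990. HCT116 was highest in both kinds of library, and its input exceeded the RIP of every other line. The log2 fold change of LDHA was the lowest of the 10 genes, at 0.55 (SE 0.21, 4 pairs; adjusted p = 0.051, edgeR). The log2 ratio of FPKM was 0.85 ± 0.13 (SD, n = 4), the narrowest spread of the 10 genes, and it passed the threshold in limma on log2(FPKM + 1) (adjusted p = 0.0157) and in DESeq2 (adjusted p = 1.51e-06). As a share of fragments, LDHA in the RIP was 1.27 times (Hep3B), 1.08 times (HCT116), 1.14 times (DU145), and 1.11 times (SW1990) that in the input.

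**Figure D2:**
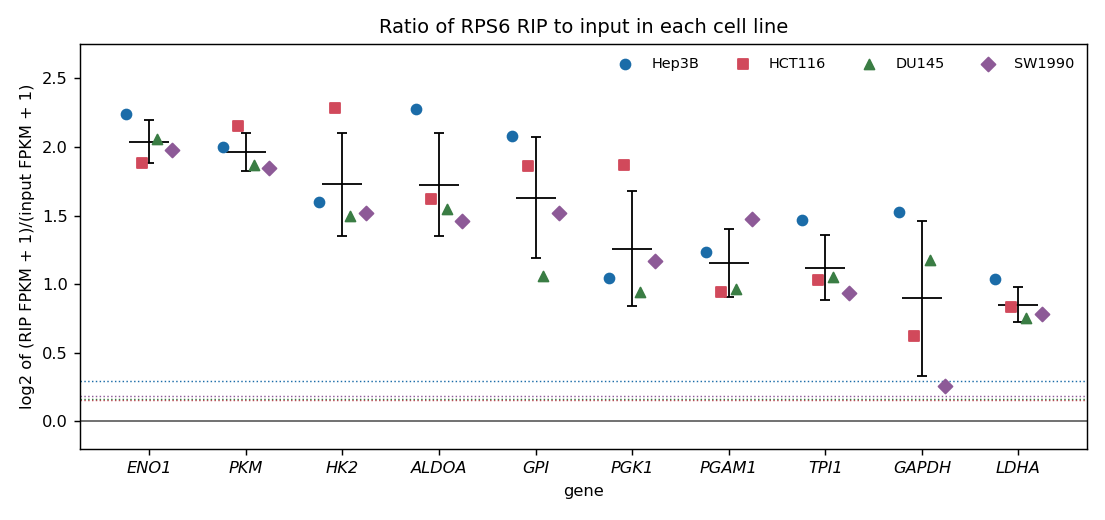
Log2 ratio of RPS6 RIP to input for each of the 10 genes, on the FPKM + 1 scale. Symbols are the 4 cell lines, black lines the mean ± SD over them, and dotted lines the median of protein-coding genes in each line. ENO1 and PKM sit highest with little spread, LDHA sits low with little spread (0.75 to 1.04), and GAPDH is the most spread (0.26 to 1.53).

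Set beside each other, the 3 genes whose RIP and input values did not overlap were ENO1, PKM, and ALDOA, and the other 7 overlapped. Over all genes with a mean of at least 1 FPKM, the lowest RIP exceeded the highest input for 12.3%. By line, the median log2 ratio of the 10 genes was highest in HCT116 (1.74), followed by Hep3B (1.56), SW1990 (1.47), and DU145 (1.12). This order rests on the median, since by the mean over the 10 genes Hep3B was first (1.65), followed by HCT116 (1.51), with DU145 and SW1990 equal (1.29). Ratios varied more between genes than between lines, with a mean SD of 0.50 between the 10 genes of a line and 0.31 between the 4 lines of a gene. ALDOA led the ratios in Hep3B, HK2 in HCT116, and ENO1 in DU145 and SW1990, while LDHA was last in Hep3B and DU145 and GAPDH in HCT116 and SW1990.

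The order of levels was alike in the 4 inputs. GAPDH was highest and HK2 lowest in each, ALDOA was among the first 3, and PGK1, PGAM1, and GPI filled the 3 places above HK2. TPI1 was second in Hep3B, HCT116, and SW1990 but sixth in DU145, where LDHA, PKM, and ENO1 also stood above it. Inputs of HCT116 had the highest level for 8 of the 10 genes, the exceptions being PKM (DU145) and HK2 (Hep3B), and the same genes and lines held for the RIP. Hep3B and HCT116 were normalized together by the authors and DU145 and SW1990 in a separate table, so levels set across these pairs of lines are less certain than the ratios within a line. Neighbors in these orders have no replicate to set against their difference. FPKM are relative values, so more of an mRNA and less of the other RNAs cannot be told apart.

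Together, the 10 genes held 0.404% of all fragments in the Hep3B input and 1.19% in the RIP, 1.43% and 2.44% for HCT116, 0.743% and 1.55% for DU145, and 0.828% and 1.35% for SW1990. The RIP share was higher in 4 of 4 lines, by 2.95-fold in Hep3B, 2.09-fold in DU145, 1.70-fold in HCT116, and 1.62-fold in SW1990. Hep3B, which had the lowest share in the input, had the largest fold and still the lowest share in the RIP. RN7SK, a noncoding nuclear RNA, alone held 3.73% of the Hep3B input and MT-CO1, encoded by mitochondrial DNA, 2.82% of the DU145 input. The part of such abundant RNAs in these shares was not tested.

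**Figure D3:**
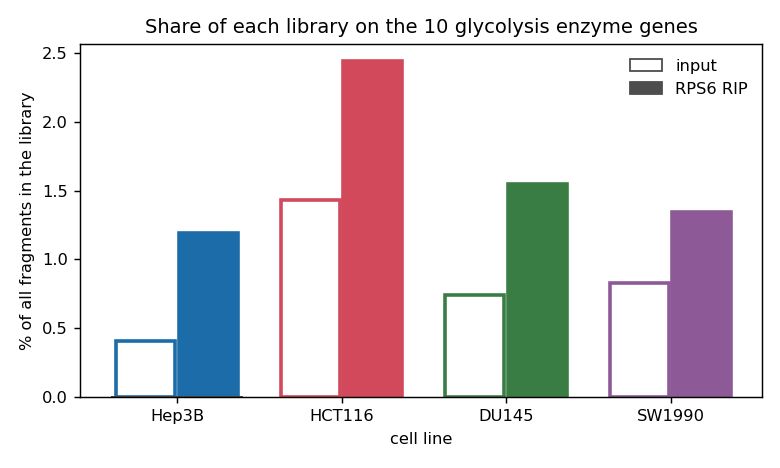
Share of all recovered fragments of a library that fell on the 10 glycolysis enzyme genes, as a percentage, in the input (open bars) and RPS6 RIP (filled bars) of each cell line. Each bar is 1 library. The filled bar is higher in every line, from 1.19% in Hep3B to 2.44% in HCT116.

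The level and length of the mRNAs were set beside their fold changes, because the fold change varied with both over all genes. By mean FPKM, 9 of the 10 genes lay in the top decile of tested protein-coding genes, where the median log2 fold change was 0.28, and HK2 lay in the sixth decile. By a length measure, the estimated counts per FPKM, the median log2 fold change rose from -0.84 in the shortest decile, where 8.18% of genes were called higher, to 0.998 in the longest, where 53.4% were. The measure was the median over all 8 libraries, RIP libraries included, and is not a fixed length of a transcript. TPI1 lay in the shortest decile, PGK1, LDHA, and ALDOA in the second, and 7 of the 10 in the shorter 5. HK2 was the only one in the longest decile. All 10 had a log2 fold change above the median of their decile, by 0.73 (HK2) to 2.23 (ALDOA). Of the genes of its decile, 97.1% had a lower log2 fold change than ALDOA, 95.2% than ENO1, 92.9% than TPI1, and 71.6% than HK2. HK2, with a log2 fold change of 1.72, thus lay closest to the median of its decile by this measure.

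**Figure D4:**
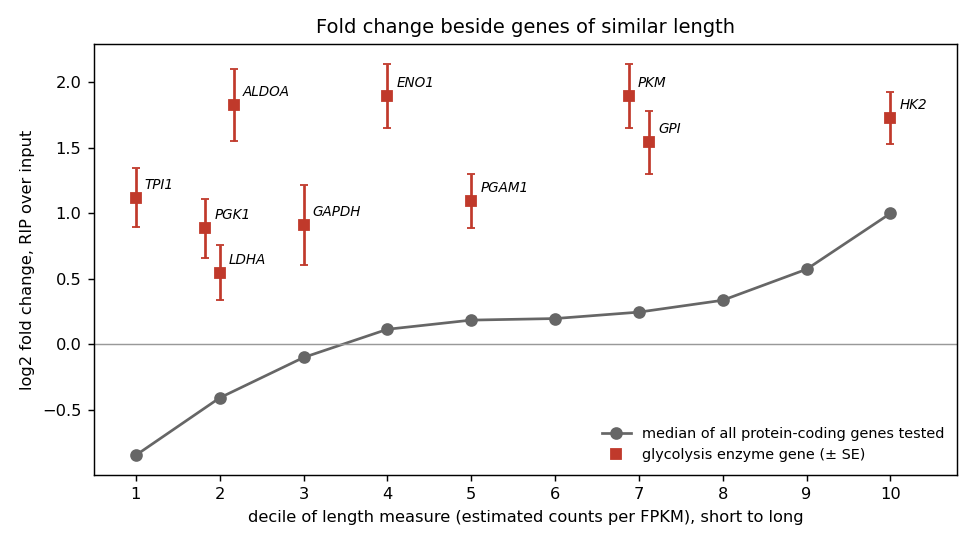
Log2 fold change of RPS6 RIP over input (vertical axis) against decile of the length measure, from short to long. Gray points are the median of all protein-coding genes tested in a decile and red squares the 10 glycolysis enzyme genes ± SE (4 pairs), shifted sideways where they share a decile. Every square lies above the gray line, which climbs from -0.84 to 0.998.

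The isoenzymes that carry out the same steps were examined next. Of 19 other genes for glycolytic enzymes, 13 had enough counts to be tested, and 9 of these were higher, 1 was lower, and 3 did not pass, with a median log2 fold change of 1.48. The shares called were 69.2% higher and 7.69% lower, compared with 26.5% and 24.9% of all genes tested. PFKL, the liver type of phosphofructokinase, which commits sugar to the pathway, had the highest log2 fold change, at 2.15 (SE 0.19; adjusted p = 1.65e-05, edgeR). It was at 12.1 and 61.1 FPKM in the Hep3B input and RIP, 43.7 and 179.7 FPKM in HCT116, 15.3 and 65.3 FPKM in DU145, and 41.4 and 174 FPKM in SW1990, without overlap of the groups. The lowest RIP exceeded the highest input for 12.3% of all genes with a mean of at least 1 FPKM. ALDOC (aldolase C) was higher by 2.06 on the log2 scale and HKDC1, a hexokinase-like gene, by 2.07. HKDC1 was low in SW1990, with 17 input and 68 RIP fragments, and in DU145, with 61 and 163. Its mean log2 ratio on the FPKM + 1 scale was 1.15, with 0.41 in SW1990. PFKP, the platelet type, was higher by 1.66, but in Hep3B had only 12 input and 4 RIP fragments, a share 0.345 times that of the input. By FPKM the direction of PFKP in Hep3B was the opposite, with 0.175 in the input and 0.451 in the RIP. HK1, the hexokinase of most tissues, was higher by 2.14, but was near 0 in Hep3B (0.0377 and 0.0344 FPKM), so its call rests on the other 3 lines. BPGM, which makes 2,3-bisphosphoglycerate on a side path, was the gene that fell, with a log2 fold change of -1.56.

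ENO3, PKLR, and LDHB did not pass the threshold and are named for that reason, after their values were seen. LDHB, the B subunit of lactate dehydrogenase, was at 621 and 672 FPKM in the HCT116 input and RIP, 248 and 302 FPKM in DU145, and 428 and 391 FPKM in SW1990, and at 0.548 and 0 FPKM in Hep3B. By share of fragments, LDHB was lower in the RIP of every line, at 0.56 times the input in HCT116, 0.796 times in DU145, and 0.636 times in SW1990, and with 11 input and 0 RIP fragments in Hep3B. The number of all genes that were lower in every line by this measure was not counted. With scaling by library totals, the median log2 fold change of all genes tested was -0.40. For LDHB, the log2 fold change was -0.39 (SE 0.34; adjusted p = 0.363, edgeR). LDHA made up 62.4% of the summed LDH FPKM in the input and 73.2% in the RIP of HCT116, 70.6% and 76.8% for DU145, and 52.5% and 67.5% for SW1990, and was nearly all of it in Hep3B. At the enolase step, ENO3 was at 110.4 and 123 FPKM in Hep3B, 37.0 and 51.7 FPKM in HCT116, 89.1 and 73.8 FPKM in DU145, and 92.9 and 87.7 FPKM in SW1990. The share of ENO1 in enolase FPKM was 72.3% in the input and 91.6% in the RIP of Hep3B, 91.9% and 93.7% for HCT116, 84.6% and 96.1% for DU145, and 76.9% and 92.2% for SW1990.

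The main mRNA for hexokinase and for phosphofructokinase was not the same in all lines. HK2 made up 77.6% of the summed hexokinase FPKM in the Hep3B input and 78.6% in the RIP, with HKDC1 as most of the rest. In DU145, HK1 made up 91.5% of the input and 90.1% of the RIP, and HK2 5.70% and 6.74%. In HCT116 and SW1990, HK1 was 67.5% and 50.7% of the inputs and 75.9% and 72.9% of the RIP, and HK2 24.8% and 39.7% of the inputs and 20.6% and 26.2% of the RIP. The main hexokinase mRNA was therefore the same in the RIP as in the input of each line. At the phosphofructokinase step, PFKL was 68.3% of the FPKM in the Hep3B input, whereas PFKP was 57.6% of the HCT116 input, 62.6% of the DU145 input, and 46.3% of the SW1990 input. ALDOA, PGAM1, and PKM made up at least 88.9% of the FPKM of their step in every library.

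Genes that bring glucose in, export lactate, or set the rate of the pathway were examined as well. Of 17 such genes, all tested, 6 were higher, 3 were lower, and 8 did not pass, with a median log2 fold change of 0.14. These shares, 35.3% and 17.6%, were not far from the 26.5% and 24.9% of all genes tested. Among the higher ones were SLC2A1, the glucose transporter GLUT1 (1.74), SLC16A3, the lactate exporter MCT4 (1.74), and PFKFB3, which makes the activator of phosphofructokinase (1.43). SLC2A1 was at 5.40 and 31.4 FPKM in the Hep3B input and RIP, 51.1 and 134 FPKM in HCT116, 56.3 and 195 FPKM in DU145, and 77.4 and 311 FPKM in SW1990, with overlap only through the low level of Hep3B. The lower ones were C12orf5, which encodes the TIGAR phosphatase (-1.68), SLC16A7, the monocarboxylate transporter MCT2 (-1.39), and PDK1, a kinase that switches off pyruvate dehydrogenase (-1.19). In limma on log2(FPKM + 1), only 1 gene of this list was lower. The mean log2 ratio of PDK1 by FPKM was -0.23, and PDK1 was higher in the RIP in SW1990 (8.45 against 7.47 FPKM), and SLC16A7 was listed at 0 in both SW1990 libraries.

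In gluconeogenesis, the reverse route, 5 of 8 genes were tested, and 3 were higher and none lower, with 2 not past the threshold. The higher ones were PC (pyruvate carboxylase, 2.70), PCK2 (the mitochondrial phosphoenolpyruvate carboxykinase, 1.95), and SLC37A4 (the glucose-6-phosphate transporter, 1.38), each without overlap of input and RIP. Over all genes tested, 26.5% were called higher and 24.9% lower, compared with 60.0% and 0% of these 5. Among all genes with a mean of at least 1 FPKM, the lowest RIP exceeded the highest input for 12.3%. In the pentose phosphate pathway, which branches off after hexokinase, 3 of 7 genes were higher, 1 lower, and 3 did not pass. These shares, 42.9% and 14.3%, stand beside 26.5% and 24.9% of all genes tested and 40.7% and 32.8% of abundant genes. TKT (transketolase) had a log2 fold change of 1.32, while PGD was at 0.50 and RPE, an epimerase, at -1.48.

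Among the enzymes after pyruvate, calls in the 2 directions depended on the scaling. Of 21 genes for the pyruvate dehydrogenase complex and the citric acid cycle, 7 were higher, 7 were lower, and 7 did not pass, and the median log2 fold change was -0.16. Both shares, 33.3%, were near those of all genes tested (26.5% and 24.9%). With library totals 5 were higher and 10 lower, after centring on protein-coding genes 5 and 9, and in limma on log2(FPKM + 1) 7 and 3. OGDH, a subunit of the 2-oxoglutarate dehydrogenase complex, was higher by 2.64. Subunits of 1 complex could differ, since SDHA of succinate dehydrogenase was higher by 1.75 whereas SDHB and SDHD were at -1.20 and -1.09. MDH2, which makes oxaloacetate, was higher by 1.07. Differences between the lists were not tested.

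**Figure D5:**
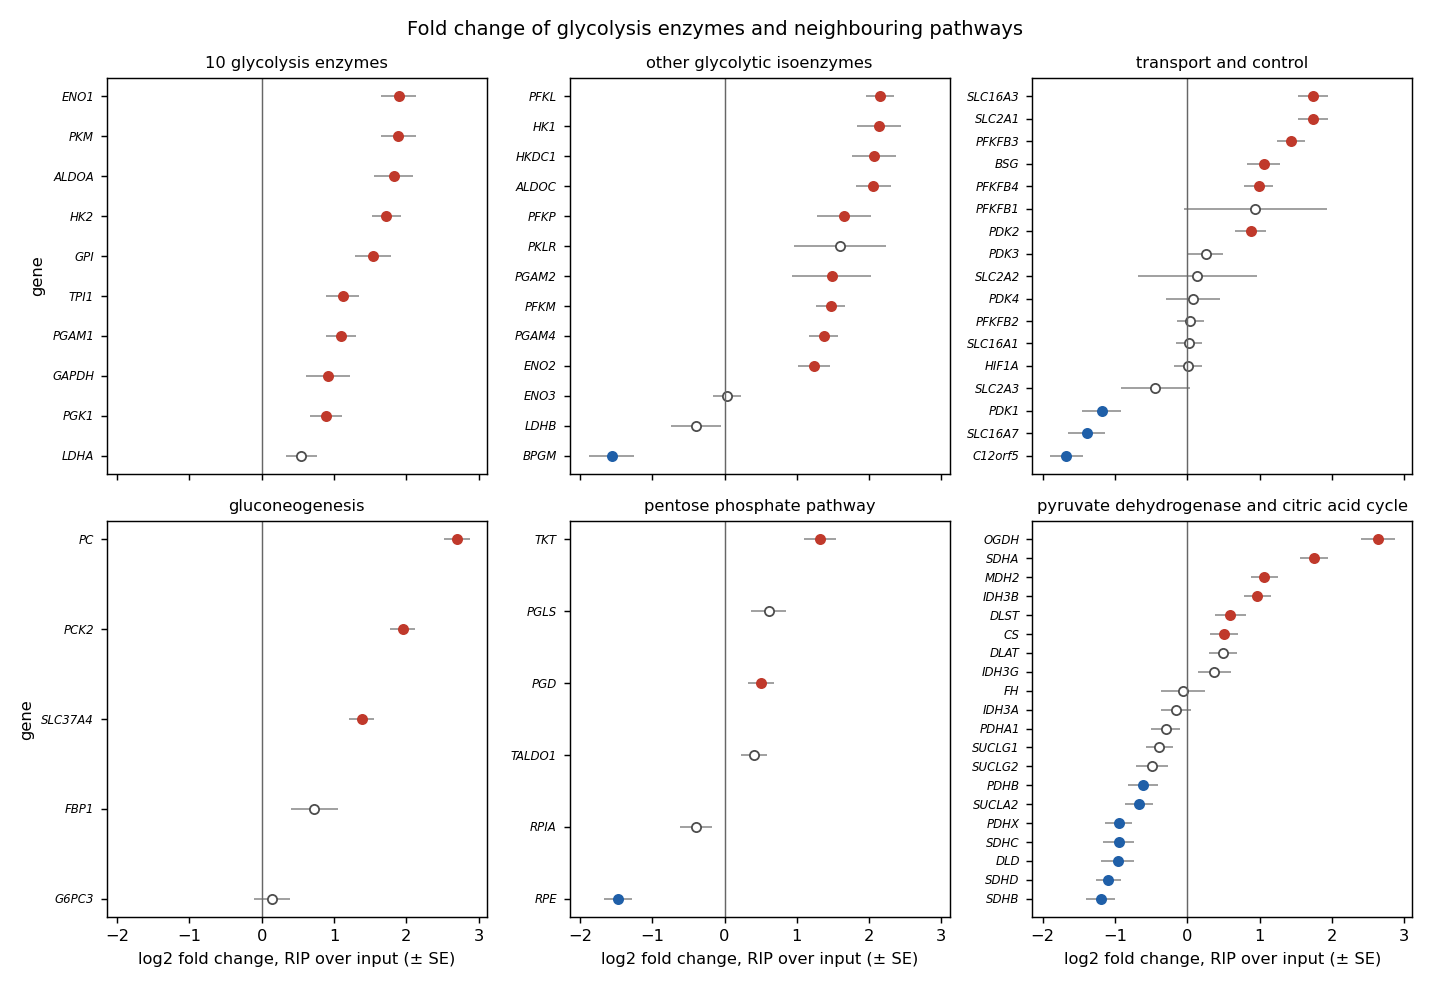
Log2 fold change of RPS6 RIP over input with its SE (4 pairs) for the 10 glycolysis enzymes and 5 lists of neighboring genes, each sorted by fold change. Red marks genes called higher, blue genes called lower, and open circles genes not past an adjusted p of 0.05 in edgeR's quasi-likelihood test. The 10 enzymes all lie to the right of 0, with LDHA open, while genes of pyruvate dehydrogenase and the citric acid cycle run from 2.64 to -1.20. Genes that are not reported here are not drawn.

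Genes with a similar pattern over the 4 lines were sought among 1127 other genes with a mean of at least 100 FPKM, by the Euclidean distance of their 4 log2 ratios to the mean ratios of the 10 enzymes. The closest was HNRNPL, an RNA-binding splicing regulator (distance 0.138), whose log2 ratios were 1.57 (Hep3B), 1.59 (HCT116), 1.25 (DU145), and 1.23 (SW1990). The next were RP11-498C9.13 (0.215), TMEM259 (0.291), AKT2, a kinase of insulin signaling (0.336), and PPP4C, a phosphatase subunit (0.340). The search left out all genes of the lists used here, among them the other glycolytic isoenzymes, so none of those could appear. With 4 lines the distances are descriptive.

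Pseudogenes named after these genes took few fragments. GAPDH had 58 pseudogenes by name, of which 43 had a value above 0, and they held at most 0.748% of the fragments of GAPDH in any library. The highest share was that of LDHA, whose 6 pseudogenes held up to 1.83%, and GPI had none. Adding the counts of pseudogenes to those of their genes changed no call among the 10 genes. PGAM4, the copy of PGAM1, was not among these pseudogenes and was not added. It made up 4.07% (DU145 input) to 6.43% (Hep3B RIP) of the summed phosphoglycerate mutase FPKM. PGK1, PKM, ALDOA, and PGAM1 were alone at their deposited locus, whereas the other 6 shared it with at least 1 other listed gene.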

How the data were processed

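RPS6 RIP and input RNA of 4 cell lines was analysed, with 1 library of each kind per line. Per the labels and the study's methods, reads were aligned to hg19 with TopHat2 2.0.9 after CASAVA 1.8. The tool that counted fragments and its annotation are not given in the sources used here, and the sequencer differs between the paper and the series record. The authors deposited FPKM, normalized for length and depth, in 2 tables of 2 cell lines each. Estimated counts were deposited too, scaled by 1 factor per library and split between overlapping genes. Dividing by the step common to most counts gave whole fragments for 93.0% to 94.5% of values above 0 (tolerance 0.05), and these were used for depth, shares, and 95% Wilson intervals, which cover counting error only. The deposited fold changes, p-values, and q-values of RIP against input were not used.

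The design had been written for counts, and the estimated counts were rounded. They were tested with edgeR 4.0.16 in R 4.3.3 (quasi-likelihood test, TMM, cell line as block, mean of at least 10 counts, Benjamini-Hochberg over all genes tested, threshold 0.05). Cell lines pair the libraries by design, and deviations from the group means correlated with r of 0.83 to 0.88 within a line and at most -0.04 between lines (across 19921 genes, which are not independent). Subtracting the mean of the 4 lines in itself pulls correlations between lines below 0, so those values do not bear on the pairing. In simulated counts of 19449 genes, 101 tested genes were changed by 1 and 86 by 2 on the log2 scale. The test recovered 33.7% and 77.9% of them, with 3 false calls among 104. In the data, 26.5% of genes were called higher and 24.9% lower, so these rates may not carry over. Ratios used a pseudocount of 1 FPKM. Alternatives are listed with their effect in the closing section and used DESeq2 1.42.0 and limma 3.58.1. Python 3.11.15 with pandas 2.3.3, NumPy 2.4.6, SciPy 1.17.1, and matplotlib 3.10.9 was used elsewhere.

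The 10 genes and the lists of neighboring genes and markers were chosen with earlier results of these data known. All 10 genes were named. Of each other list, up to 6 genes past the threshold with the highest absolute log2 fold change were named, and the 5 genes of at least 100 FPKM nearest to the 10 in their ratios. Some genes of the other lists were tested and counted but are not reported here by name. Promoters and protein-coding symbols came from RefSeq tables of GRCh38.p14, used for names and for the sequences shown, and matched 17755 protein-coding genes and all 10 enzymes. All other coordinates are hg19 as deposited.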

Additional observations from a re-analysis of the deposited data

Results flagged for a closer look

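In groups of 4 cell lines, the gap between an extreme line and its nearest neighbor was divided by the range of the group, for the input level, the RIP level, and the log2 ratio of each of the 10 genes. Of the 30 groups, 3 were above Dixon's 95% critical value, which chance exceeds in about 1 of 20. HCT116 was the outlying line in each. For PGK1, log2 FPKM of the input was 8.49 in HCT116 and 6.73 to 6.92 in the other lines (gap 0.896 of the range), and log2 FPKM of the RIP was 10.36 in HCT116 and 7.79 to 7.96 in the others (gap 0.932 of the range). For HK2, the log2 ratio was 2.28 for HCT116 and 1.50 to 1.60 in the others (gap 0.871 of the range). With 1 library of each kind per line, a property of the line and of the library cannot be told apart.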

How the results depend on the processing

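None of the fold changes and mean ratios over the 4 lines changed direction under the alternatives tried. Of the values under alternatives, 340 kept their direction and side of the threshold or stayed within their range, 16 fell below the threshold, 3 rose above it, and 26 moved. Without the replicate block, which drops the pairing of libraries by cell line, only ALDOA (1 of 10 genes) was called higher, and the log2 fold changes were 0.82 for GAPDH, 1.17 for PGK1, 1.84 for ENO1, 1.89 for PKM, 1.06 for TPI1, 1.06 for PGAM1, 1.52 for GPI, and 1.67 for HK2. In that fit 0 other isoenzymes and 0 transport and control genes were called in either direction, 1 pentose phosphate gene was higher, and 3 genes after pyruvate were higher and 0 lower. With library totals, GAPDH (0.56) and PGK1 (0.54) did not pass and 2 pentose phosphate genes were lower. GAPDH also did not pass in limma with a pseudocount of 1 or 0.1 (0.90 and 0.90) or after centring on protein-coding genes (0.78). LDHA passed in both limma fits (0.85 and 0.85) and in DESeq2 (0.56), and 5 pentose phosphate genes were higher in DESeq2. In both limma fits, 1 transport and control gene was lower, and 3 genes after pyruvate were lower. As counts per 1000000 fragments with pseudogenes added, the mean log2 ratios were 0.54 for PGK1, 1.54 for ENO1, 1.54 for PKM, 0.19 for LDHA, 0.77 for TPI1, 0.74 for PGAM1, 1.19 for GPI, and 1.34 for HK2, with a median of 0.98 over the 10 genes. The same measure without pseudogenes gave 0.54 for PGK1, 1.54 for ENO1, 1.54 for PKM, and 0.20 for LDHA. It gave 0.77 for TPI1, 0.74 for PGAM1, 1.19 for GPI, and 1.34 for HK2. Centred ratios were 1.84 for ENO1, 1.76 for PKM, and 0.65 for LDHA. The cause of these shifts was not tested.

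Leaving out the pair of each cell line in turn, the count of higher genes was 8 to 9 of 10. The log2 fold change of GAPDH ran from 0.58 to 1.16 and passed only without the SW1990 pair, while LDHA ran from 0.45 to 0.57 and stayed short of the threshold, and the other 8 genes kept their call. Adjusted p-values over the alternatives ran from 1.7e-51 to 0.056 for PKM, 1.27e-40 to 0.0634 for ENO1, 0.00202 to 0.454 for GAPDH, and 1.51e-06 to 0.58 for LDHA. The use of recovered fragments was added after the values were seen and changed no call among the 10 genes. Depth did not limit these abundant mRNAs, of which HK2 had the fewest fragments (497 in the DU145 input). The number of cell lines and the single library per line and kind limit the precision.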
